A study of Mus musculus with 6 samples.

Results

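The deposited expression table of mouse colon under perfluorooctanoic acid (PFOA) holds 2033 genes, and 209 of them are annotated long non-coding RNAs (lncRNAs). They were chosen by the gene type written in the table: 91 are of the type lncRNA, 68 lincRNA (a lncRNA lying between genes), 39 antisense (running against another gene) and 11 processed_transcript. Of 211 rows of these 4 types, 2 whose names hold a Hox gene were left out. The study compared the colon of control mice with that of mice given PFOA over a long time, with 3 libraries in each group and mRNA sequencing from a SMARTER kit. PFOA is a persistent fluorinated surfactant. The labels speak of 6 frozen mice per group, do not say how these mice were divided among the libraries, and give no dose, strain, sex, age or colon segment, so the p-values below measure only the spread between these libraries. The table lists only genes that differ between the groups, and a call on a lncRNA is therefore a description of its direction and not evidence of an effect.

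A lncRNA is a transcript, usually spliced and polyadenylated, that is too long to be a small RNA and has no evident protein product. Some act on chromatin or on transcription close to where they are made, some host microRNAs or small nucleolar RNAs (snoRNAs) in their introns or exons, and for most no function is known. An antisense lncRNA runs across a coding gene on the other strand, and a divergent one starts beside a coding promoter and runs away from it. Many lncRNAs are more restricted to a tissue or cell type than mRNAs are.

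The lncRNAs fell into 98 with a higher and 111 with a lower scaled count under PFOA, 46.9% higher against 50.9% of all listed rows. edgeR's filter on low counts kept 116 of them (55.5%), against 86.1% of the protein-coding rows. Of these, 53 were higher and 63 lower at an adjusted p of at most 0.0274 (edgeR quasi-likelihood test); with 100% of the 1608 tested rows called, 50% in each direction, nothing is read from that count. The median log2 fold change was 1.98 among the higher and -1.80 among the lower lncRNAs, beside 1.71 and -1.80 over all tested rows. Over the 116 together it was -1.14, beside -0.03 over all tested rows and -1.06 over the tested protein-coding rows, 516 higher and 534 lower. No tested row had an absolute value below 0.96, so such a median mainly shows which side holds more rows. The value of -1.14 is the same with the 2 lncRNAs that had no count in a group set at their bound. The raw counts of the groups did not overlap for 198 of the 209 (94.7%, against 95.8% of all rows).

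**Figure D1:**
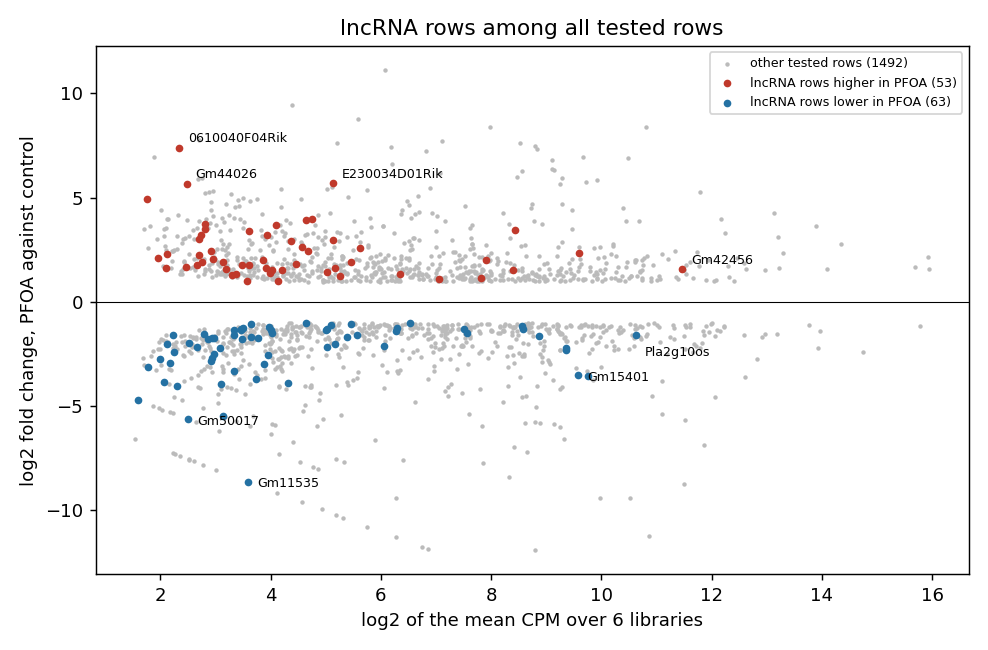
Log2 fold change, PFOA against control (vertical axis), against log2 of the mean CPM, the scaled read count, over the 6 libraries (horizontal axis) for the 1608 tested rows; grey points are other rows, red points the 53 higher and blue points the 63 lower lncRNAs. The coloured points lie mostly at the left, at low levels, and the empty band around 0 is the selection of the table; the fitted values of 0610040F04Rik and Gm11535, which had no count in a group, depend on the fit's prior count.

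Most lncRNAs were scarce. Their median level was 4.91 CPM (read counts scaled to a common library total, here the TMM-scaled total of the listed counts), against 65.4 for protein-coding rows, and per kilobase of transcript 3.83 against 16.6 CPM. Of the 209, 127 had fewer than 100 reads over all 6 libraries, 16 had fewer than 10 and 18 had at least 1000. The 28 lncRNAs with no read in any PFOA library (5.12% of all rows have none) and the 18 with none in any control library (4.48%) are given below by their reads where they are named. Together the lncRNAs took 1.66%, 1.45% and 1.45% of the listed counts in control and 0.930%, 1.14% and 1.25% under PFOA. These totals, in unscaled counts 29324, 29045 and 31166 against 20282, 24449 and 28407, include 8 rows that hold coding exons (next paragraph). Without those rows the counts were 23294, 24105 and 25601 in control and 17925, 22307 and 26415 under PFOA. The summed level of the lower lncRNAs went from 12330, 10980 and 11480 CPM to 3202, 2589 and 2797, and that of the higher ones from 1969, 3074 and 2652 to 7670, 8920 and 10460. Both sets were split by these same counts, so the direction of each sum was set by the choice. In bulk tissue, fewer cells of a type and less RNA per cell cannot be told apart.

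Against the GENCODE M21 annotation, 112 lncRNAs lay between coding genes, 83 overlapped a coding gene on the other strand, 6 lay in an intron of a coding gene on the same strand, and 8 held exons of a coding gene on their own strand. Higher and lower rows numbered 54 and 58, 37 and 46, 5 and 1, and 2 and 6 in these classes. The 8 rows with coding exons took 14.2% of all lncRNA counts and cannot be read as lncRNA levels; among them are Gm45901 with Aldh1l1 (a folate enzyme), BC028471 with Medag, Gm5111 with the zinc-finger genes Repin1 and Zfp775, and Gm17322 with Cyp11a1 (the first enzyme of steroid synthesis). Reads of the 6 rows in introns cannot be told apart from intron reads of the coding gene on that strand. In the deposited annotation 22 rows carry a UniProt and 70 a protein-database match. How strands were used in counting is not given in the sources used here, so reads of a lncRNA and of a coding gene across from it cannot be told apart either; 74 rows contain bases of coding exons on the other strand.

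Promoter windows from RefSeq (GRCm38.p6, 250 bases before to 50 after the start) could be matched for 104 of the rows. The 4 below are shown because they open lncRNAs with large or well-measured differences, 1 lower and 3 higher under PFOA. Capitals mark TTTATNG, a motif of the type bound by CDX and posterior HOX proteins, and CAAAGTC, a motif of the type bound by HNF4, searched on both strands.
Gm15401 (lower), chr6:72629038-72629337, + strand: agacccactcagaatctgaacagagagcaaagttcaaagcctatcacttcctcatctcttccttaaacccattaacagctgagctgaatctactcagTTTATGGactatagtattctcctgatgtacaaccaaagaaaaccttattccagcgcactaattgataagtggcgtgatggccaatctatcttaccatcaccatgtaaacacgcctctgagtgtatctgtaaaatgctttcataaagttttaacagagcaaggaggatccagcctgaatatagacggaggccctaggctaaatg
Mir205hg (higher), chr1:193510161-193510460, - strand: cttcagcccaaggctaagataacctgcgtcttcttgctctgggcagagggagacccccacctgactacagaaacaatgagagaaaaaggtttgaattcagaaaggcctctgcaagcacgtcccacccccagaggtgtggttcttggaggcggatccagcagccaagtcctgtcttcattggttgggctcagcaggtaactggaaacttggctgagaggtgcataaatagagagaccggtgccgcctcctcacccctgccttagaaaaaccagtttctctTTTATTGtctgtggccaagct
2010001M07Rik (higher), chr9:60333859-60334158, + strand: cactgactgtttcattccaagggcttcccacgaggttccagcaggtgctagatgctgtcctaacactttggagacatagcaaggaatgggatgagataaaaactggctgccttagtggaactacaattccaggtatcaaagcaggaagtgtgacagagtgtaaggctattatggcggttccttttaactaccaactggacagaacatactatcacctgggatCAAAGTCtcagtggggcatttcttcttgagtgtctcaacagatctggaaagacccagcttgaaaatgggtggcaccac
0610040F04Rik (higher), chr6:108660885-108661184, - strand: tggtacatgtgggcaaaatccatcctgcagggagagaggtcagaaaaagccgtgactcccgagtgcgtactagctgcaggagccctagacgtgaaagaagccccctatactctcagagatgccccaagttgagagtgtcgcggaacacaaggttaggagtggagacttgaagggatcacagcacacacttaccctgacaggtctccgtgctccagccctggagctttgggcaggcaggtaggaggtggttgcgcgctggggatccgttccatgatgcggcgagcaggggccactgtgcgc
The windows of Gm15401 and Mir205hg each hold 1 match of TTTATNG, that of 2010001M07Rik holds 1 of CAAAGTC, and that of 0610040F04Rik holds neither. Over the first windows of 108 genes in these rows, TTTATNG was found in 14 (13.0%), beside 11.3% of 27025 RefSeq promoters, with 13.7% for the higher and 12.3% for the lower rows. CAAAGTC was found in 5 (4.63%), beside 4.36% of all promoters, with 4 of 51 among the higher and 1 of 57 among the lower rows. Neither motif can be read as a site of binding.

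Among lncRNAs lower under PFOA, Gm11535 differed most. This lincRNA of 2 exons (chr11:96177551-96178800, + strand, mm10 as all coordinates here) lies 12100 bases from Ttll6, a tubulin-modifying enzyme, and 15516 bases from the row of Hoxb13, a posterior homeobox gene of the hindgut. It had 52, 37 and 65 reads in control, and no PFOA library had any. That is at least 49.8-fold lower, taking 3 reads over the PFOA group as the floor (adjusted p = 3.85e-04). Its neighbour Ttll6 had 2247, 1427 and 1614 reads in control and 71, 327 and 434 under PFOA, a log2 fold change of -2.67 ± 0.56 (SE).

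The other 7 of the 8 lowest were scarce too, and none reached 100 reads in a library. Gm50017 on chromosome 17 had 28, 19 and 24 reads in control and 0, 0 and 1 under PFOA, 68.9-fold lower (95% exact interval 11.97 to 2758, counting error only). Gm31881, across from Gipc2 (a scaffold protein), had 53, 24 and 32 reads against 2, 0 and 0, 52.9-fold lower (14.3 to 442). Gm34574 on chromosome 10 had 12, 10 and 15 against 1, 0 and 0, 35.9-fold lower (6.05 to 1455). In each of these the PFOA reads lie below every control library, with most PFOA libraries at 0. Gm20149, across from the ciliary gene Ahi1, had 26, 21 and 11 reads against 3, 0 and 0, 18.8-fold lower (6.11 to 93.6). Gm49427, across from the chemokine receptor gene Cx3cr1, had 10, 17 and 23 against 1, 0 and 2, 16.2-fold lower (5.22 to 81.0). Gm20756 had 37, 26 and 40 reads against 2, 0 and 4 (-3.97 ± 0.63), and Gm48809, across from the Golgi gene Cog5, had 87, 86 and 61 against 3, 2 and 10 (-3.90 ± 0.55). The 8 lowest were chosen among rows whose groups do not overlap, so their lack of overlap follows from the choice. The size of the difference rests on few PFOA reads. Without PFOA replicate 1 the fitted log2 fold change became -7.31 for Gm20149, -8.21 for Gm31881 and -6.66 for Gm34574. Without PFOA replicate 3 it became -7.54 for Gm50017, -4.84 for Gm20756, -4.65 for Gm49427 and -4.81 for Gm48809. Without PFOA replicate 2 it was -3.46 for Gm20149, -3.35 for Gm20756 and -3.25 for Gm49427. Every one of these refits stayed below the threshold.

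Among lncRNAs higher under PFOA, 0610040F04Rik (chr6:108577039-108660934, - strand) had no read in control and 19, 17 and 26 under PFOA. That is at least 21.3-fold higher, with the floor of 3 reads over the control group (adjusted p = 6.09e-04). It starts on the other strand 305 bases inside Bhlhe40, a basic helix-loop-helix repressor of the circadian system, and runs out over that gene's start; Bhlhe40 has no row here. E230034D01Rik (chr9:43993984-44000673, + strand) had 1, 5 and 2 reads in control and 39, 170 and 226 under PFOA, 56.1-fold higher (5.70 ± 0.81, and 6.44 without control replicate 2). Gm44026, across from the actin regulator Wipf3, had 0, 1 and 0 against 22, 23 and 22, 69.1-fold higher (11.98 to 2768). The 3 PFOA libraries of Gm44026 are nearly equal, while those of E230034D01Rik spread widely. As with the lower lncRNAs, only rows without overlapping groups could be chosen here.

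Gm45004 on chromosome 7 had 0, 1 and 0 reads in control and 17, 10 and 13 under PFOA, 41.2-fold higher (6.99 to 1669). Gm2447 had 1, 3 and 2 against 16, 30 and 36 (3.72 ± 0.50). 9030616G12Rik, 10209 bases from Mettl7b, a methyltransferase of lipid droplets, had 5, 7 and 3 against 54, 57 and 84 (3.70 ± 0.42), and Mettl7b itself rose by 2.01 ± 0.32 on the log2 scale. In these 3 the groups lie far apart. In C430002N11Rik and 2010001M07Rik single libraries weigh more. C430002N11Rik had 9, 7 and 4 reads in control and 213, 55 and 27 under PFOA, and its log2 fold change of 3.97 ± 0.91 was 2.54 without PFOA replicate 1. 2010001M07Rik, in the interval of Thsd4, had 0, 17 and 2 against 44, 86 and 166, and its 3.94 ± 0.99 was 6.44 without control replicate 2 and 3.23 without control replicate 1. The single control reads matter in the same way for Gm44026 and Gm45004, whose fitted values of 5.65 and 4.93 became 7.50 and 6.78 when control replicate 2 was left out, and 5.07 and 4.34 when control replicate 3 was.

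**Figure D2:**
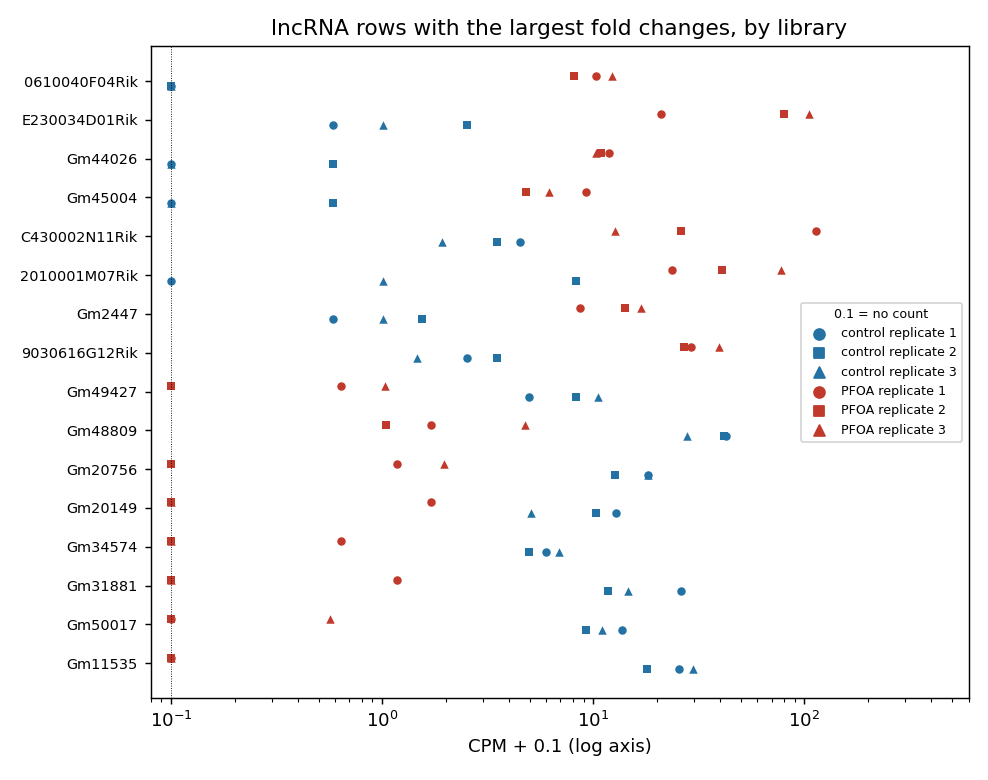
CPM plus 0.1 on a log axis for the 8 higher and 8 lower lncRNAs with the largest fold changes, 1 point per library (blue control, red PFOA, shape for the replicate number); the dotted line at 0.1 is no read. Only rows whose groups do not overlap could be chosen, so no red point overlaps a blue one within a row. In Gm11535 and 0610040F04Rik all 3 libraries of a group sit on the line.

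Gm42456, 1700010I02Rik and MSTRG.16919 were among the abundant lncRNAs that rose. The most abundant per kilobase was Gm42456 (chr5:137263062-137288662, - strand), at 898 CPM per kilobase over the 6 libraries. It had 2026, 3747 and 3331 reads in control and 4276, 9451 and 12810 under PFOA, a rise of 1.56 ± 0.40 on the log2 scale. The row reaches 11031 bases beyond its annotated gene, overlaps the acetylcholinesterase gene Ache on the other strand and lies 50673 bases from Muc3a, a membrane mucin that rose by 1.77 ± 0.35. 1700010I02Rik on chromosome 3 rose from 449, 600 and 542 reads to 3228, 2244 and 2311 (2.36 ± 0.27), again in a row that reaches 67956 bases past its annotated gene. The unnamed row MSTRG.16919 lies in an intron of the microtubule gene Mapre3, on the same strand. It had 284, 398 and 425 reads in control and 1306, 1004 and 680 under PFOA (1.51 ± 0.33). In all 3 every PFOA library lay above every control library.

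The rows of Pla2g10os, Gm16341, Gm15401, Gm45901 and 4732471J01Rik were among the abundant rows that fell, and all but that of Gm45901 overlap coding genes on the other strand. The row of Gm45901 holds coding exons of Aldh1l1 and cannot be read as a lncRNA level. 4732471J01Rik went from 1771, 2611 and 2531 reads to 535, 398 and 401 (-2.31 ± 0.27), over an interval that spans Lipe (hormone-sensitive lipase), Cxcl17 and the cell-adhesion genes Ceacam1 and Ceacam2, none of which has a row. The row of Gm45901 and Aldh1l1 went from 2704, 1966 and 2220 to 794, 277 and 281 (-2.25 ± 0.49, and -3.09 without PFOA replicate 1). The control and PFOA counts of both rows are far apart, with PFOA replicate 1 the nearest to control.

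Few of the lncRNAs carry a well-known name. Of 97 well-known lncRNA names, 6 rows carry one, and the remaining names are not analysed here. Miat, a long nuclear lncRNA first described in the heart, had 309, 185 and 217 reads in control and 41, 128 and 98 under PFOA (-1.40 ± 0.41, adjusted p = 0.0117). Snhg14, the long imprinted transcript that runs against Ube3a in the Prader-Willi and Angelman region, has 2 rows. The one merged with Snrpn and Snurf rose from 222, 340 and 341 reads to 575, 679 and 642 (1.12 ± 0.23); it holds the coding exons of these genes, and the snoRNAs Snord64 and Snord107. The other, over Ube3a, had 0 reads in each control library and 1, 4 and 4 under PFOA. Platr4, named for pluripotent stem cells, had 5, 11 and 26 reads against 0, 1 and 2, 13.6-fold lower (4.34 to 68.5). Ptgs2os2, a neighbour of the prostaglandin synthase gene Ptgs2, had 1, 3 and 0 against 9, 10 and 10. Evx1os, antisense to the homeobox gene Evx1, had 4, 9 and 3 against 0, 0 and 0, and Evx1 had 9, 16 and 9 against 0, 0 and 0. Apart from Miat and the merged Snhg14 row these did not pass the filter on low counts. Hotairm1, a lncRNA of the Hox A cluster outside that list, had 45, 22 and 32 reads against 8, 13 and 18 (-1.31 ± 0.41), 60981 bases from Hoxa9; its adjusted p was 0.0513 without PFOA replicate 2.

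Annotated microRNA genes lay on the same strand inside 2 lncRNAs, both higher under PFOA. Mir205hg, the host transcript of the epithelial microRNA miR-205, had 12, 21 and 8 reads in control and 67, 83 and 102 under PFOA, 6.34-fold higher (2.64 ± 0.42). Gm3294, which holds Mir129-1, had 0, 4 and 1 against 5, 13 and 14 and did not pass the filter on low counts. The microRNAs themselves were not measured. Their mature sequences (RefSeq, GRCm38.p6) are given with the seed, bases 2 to 8, in capitals, since the seed pairs with target mRNAs.
mmu-miR-205-5p: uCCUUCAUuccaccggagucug
mmu-miR-205-3p: gAUUUCAGuggagugaagcuca
mmu-miR-129-5p: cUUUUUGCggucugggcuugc
The 3 seeds differ from each other. A further lncRNA, 2010001K21Rik, holds a snoRNA gene and fell from 217, 202 and 272 reads to 32, 53 and 68 (-2.14 ± 0.31).

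Each lncRNA was paired with the nearest listed protein-coding row. The median gap was 404600 bases, so most pairs are far apart. Of the 209, 134 (64.1%) differed in the same direction as that neighbour; for protein-coding rows and their nearest other protein-coding row it was 729 of 1218 (59.9%). Distance separated the pairs. Within 100000 bases 56 of 62 lncRNAs (90.3%) were on the same side, against 76.0% of 384 coding rows, and beyond it 78 of 147 (53.1%), against 52.4% of 834. Within 10000 bases it was 33 of 34 (97.1%), against 112 of 132 (84.8%). Among rows that do not overlap their neighbour the shares were alike, 59.3% of 182 lncRNAs and 59.4% of 1181 coding rows. The difference between lncRNAs and coding rows was not tested, since adjacent rows can share reads and were selected by the same comparison.

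**Figure D3:**
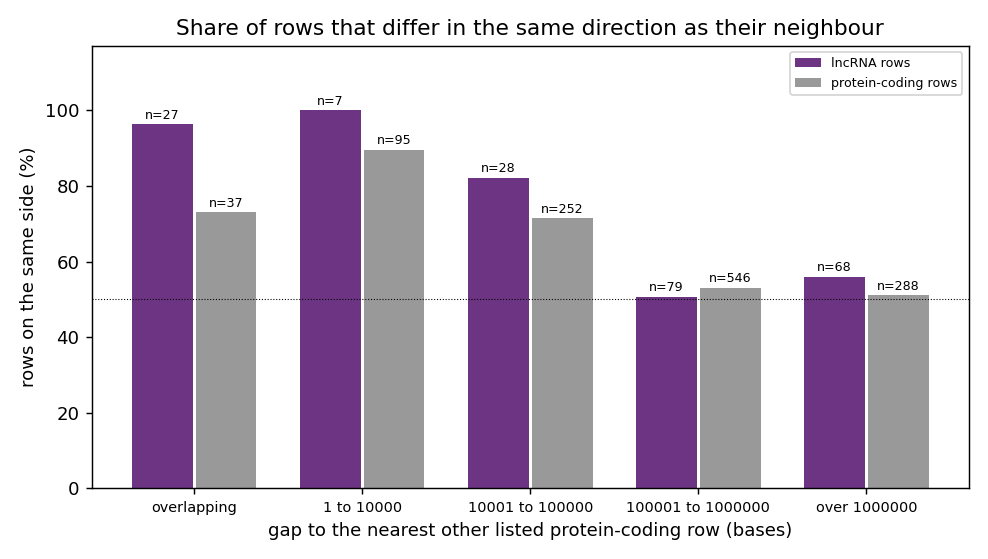
Share of rows (percent, vertical axis) that differ in the same direction as the nearest other listed protein-coding row, by the gap between them in bases; purple bars are lncRNAs, grey bars protein-coding rows, with the number of rows above each bar and a dotted line at 50%. The purple bars stand at 96.3%, 100% and 82.1% in the first 3 classes and at 50.6% and 55.9% in the last 2.

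The 6 pairs within 100000 bases that went apart are few enough to name. Arhgap20os fell while Arhgap20, a gene for a GTPase-activating protein across from it, rose. Plut, a lncRNA beside the pancreatic and duodenal homeobox gene Pdx1, fell from 15, 31 and 20 reads to 5, 6 and 3 (-2.16 ± 0.46), while Cdx2, an intestinal homeobox gene 26947 bases away, rose from 619, 1313 and 868 to 4617, 3549 and 4066 (2.18 ± 0.33); Pdx1 has no row. The row of Gm17322 (-3.32 ± 0.78, and -2.62 without control replicate 1), which holds coding exons of Cyp11a1, lies 35176 bases from Sema7a. 4732471J01Rik lies 48203 bases from Erich4, and both neighbours rose. D430001F17Rik had 32, 55 and 59 reads against 54, 133 and 146 (1.21, with overlapping groups and the call lost without 4 of the 6 libraries in turn) beside a lower row of Mrps6 and Slc5a3. The scarce 1700040D17Rik had 1, 0 and 0 reads against 3, 3 and 6 beside Oaz3, with 11, 9 and 10 against 1, 1 and 0.

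**Figure D4:**
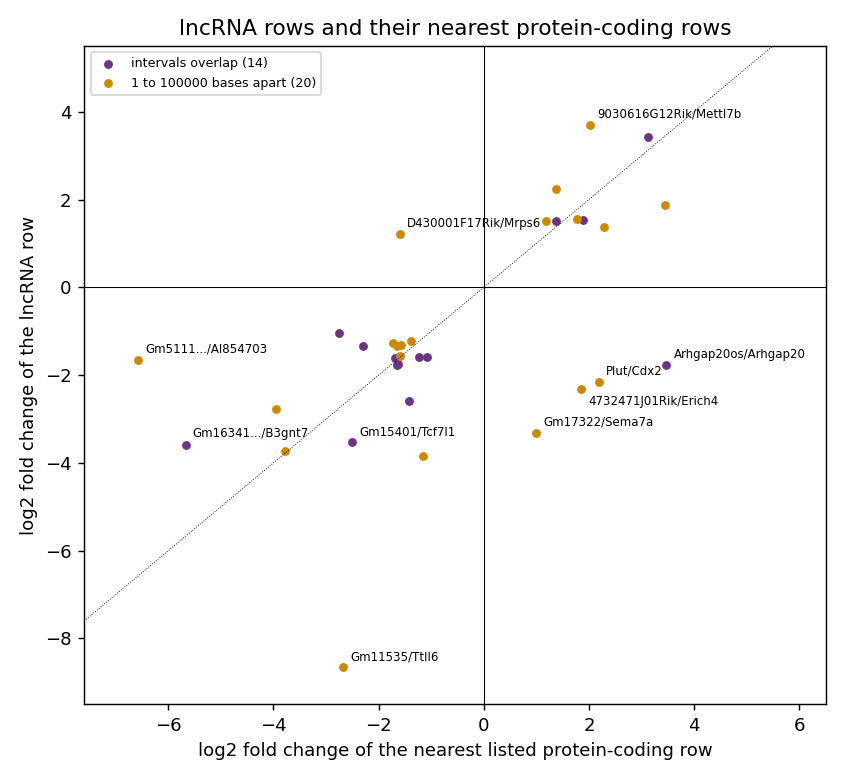
Log2 fold change of the lncRNA (vertical axis) against that of its nearest listed protein-coding row (horizontal axis) for the 34 pairs within 100000 bases in which both were tested; purple points overlap (14 pairs), ochre points lie 1 to 100000 bases apart (20 pairs), and the dotted line marks equal change. Most points lie in the lower left and upper right quadrants, and Arhgap20os, Plut, 4732471J01Rik, Gm17322 and D430001F17Rik lie outside them.

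Of 27 lncRNAs that overlap their listed neighbour, 26 were on its side (96.3%, against 27 of 37, 73.0%, for coding rows); on opposite strands it was 23 of 24, against 14 of 24 for coding rows. In 24 of the 27 the lncRNA had fewer reads than its neighbour in control, with a median of 5.56 reads per 100, and 19 contain bases of coding exons on the other strand. Of the 14 pairs in which both were tested, 13 were on the same side, and in 7 of those the log2 fold changes were less than 0.5 apart.

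Gm12981 lies in an intron of Sesn2 (a stress-induced inhibitor of mTORC1), on the same strand. It had 30, 17 and 13 reads against 77, 57 and 30, with the groups touching at 30 reads. Gm12981 rose by 1.51 ± 0.51 and Sesn2 by 1.38 ± 0.28. The call on Gm12981 was lost without control replicate 2 (adjusted p = 0.0693), control replicate 3 (0.0933) or PFOA replicate 1 (0.0641). Gm12999, 22186 bases from Sesn2, had 7, 3 and 4 against 28, 22 and 15 (2.24 ± 0.48).

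B3gnt7 encodes an N-acetylglucosaminyltransferase that extends sugar chains. The row of Gm16341 and Gm28626 across from it (chr1:86266209-86304059, - strand) had 3925, 2851 and 3269 reads in control and 285, 280 and 244 under PFOA (-3.58 ± 0.25, adjusted p = 5.38e-05). B3gnt7 fell further, from 14914, 10137 and 11126 reads to 115, 314 and 274 (-5.67 ± 0.43). The antisense row thus had 27.8 reads per 100 of B3gnt7 in control and 115 under PFOA; 4207 of its bases are coding exon on the other strand, and it also spans part of Armc9. Tcf7l1, a repressor in Wnt signalling, fell from 1826, 995 and 1343 reads to 245, 205 and 257 (-2.51 ± 0.29). Gm15401 (chr6:72629288-72637717, + strand), whose start is printed above, fell from 3456, 2367 and 3049 to 397, 145 and 177 (-3.54 ± 0.47, and -4.25 without PFOA replicate 1). It had more reads than Tcf7l1 in control, 213 per 100, and 102 per 100 under PFOA.

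Pla2g10os (chr16:13728174-13744675, + strand) exceeded its coding partner most. It had 5036, 4761 and 5271 reads in control and 1359, 1567 and 1924 under PFOA (-1.60 ± 0.20). Pla2g10, a secreted phospholipase, had 1060, 1058 and 934 against 404, 405 and 449 (-1.24 ± 0.20), so that there were 494 lncRNA reads per 100 in control and 386 under PFOA. Has2os and Has2, a hyaluronan synthase, fell by 1.58 ± 0.38 and 1.08 ± 0.38 on the log2 scale, with 30, 26 and 40 reads of Has2os against 6, 10 and 15. The row 9330158H04Rik over the muscarinic receptor gene Chrm2 had 41, 56 and 73 reads against 7, 14 and 6 (-2.59 ± 0.42) where Chrm2 fell by 1.42 ± 0.24. Gm15895 and Il34, a ligand of the CSF1 receptor, fell by 1.74 ± 0.50 and 1.64 ± 0.28, and Gm16401 and Prom1, a membrane glycoprotein of epithelial microvilli, rose by 1.52 ± 0.38 and 1.88 ± 0.37.

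Arhgap20os was the exception. It had 25, 22 and 28 reads in control and 7, 10 and 4 under PFOA (-1.77 ± 0.39), while Arhgap20 had 146, 335 and 262 reads against 1104, 2960 and 4127 (3.47 ± 0.50). Per 100 Arhgap20 reads there were 10.1 of Arhgap20os in control and 0.256 under PFOA. The row holds 6042 bases of coding exon on the other strand.

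**Figure D5:**
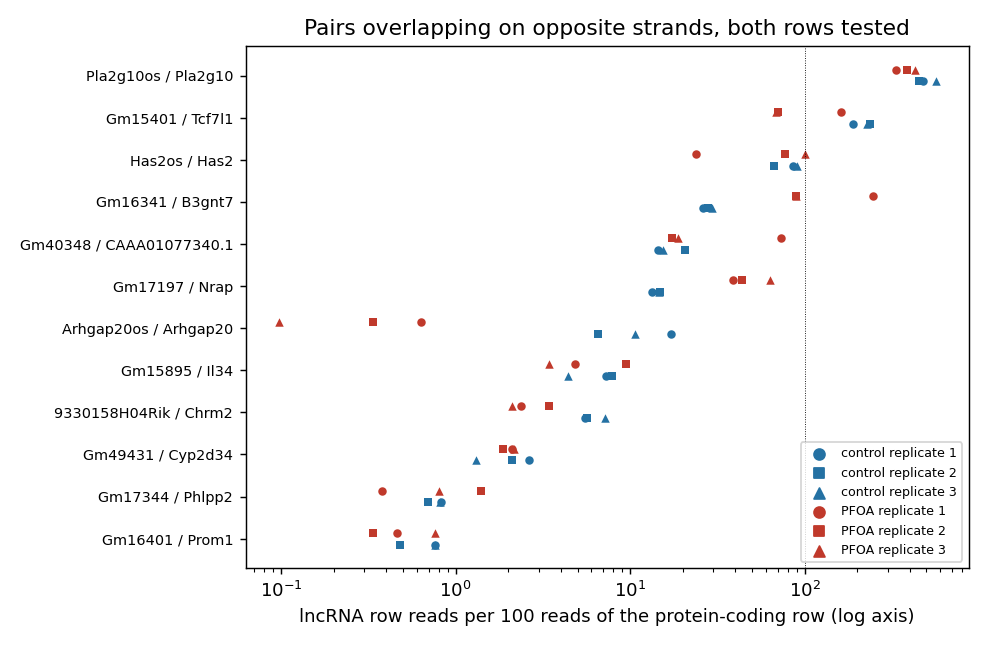
Reads of the lncRNA per 100 reads of the protein-coding row it overlaps (log axis) for the 12 pairs that overlap on opposite strands and in which both were tested, 1 point per library (blue control, red PFOA, shape for the replicate number); the dotted line marks equal reads. Pla2g10os lies to the right of the line in all 6 libraries, Gm16341 moves right under PFOA, and Arhgap20os moves left.

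Several scarce lncRNAs lay beside listed genes with known roles in the gut or in development. 9530036O11Rik, antisense to the morphogen gene Shh, had 3, 2 and 0 reads in control and 7, 51 and 44 under PFOA, and Shh had 0, 2 and 1 against 3, 18 and 21; in both rows PFOA replicate 1 was the lowest of its group. Gm50048, across from the water channel gene Aqp4, had 3, 38 and 15 reads against 2, 1 and 0, and Aqp4 had 2468, 12181 and 8861 against 401, 266 and 286. BB031773, 5907 bases from Insl5 (a peptide hormone of colonic enteroendocrine cells), had 1, 6 and 3 against 0, 0 and 0, and Insl5 fell from 959, 1761 and 1582 reads to 4, 11 and 18. None of these 3 lncRNAs passed the filter on low counts, which asks for enough reads in 3 libraries, so none was tested.

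Gm29542, 10664 bases from the colonic chloride and bicarbonate exchanger gene Slc26a3, had 10, 14 and 4 reads against 0, 0 and 0, at least 9.05-fold lower, and Slc26a3 fell by 2.21 ± 0.50 on the log2 scale. Gm31749, 14865 bases from the goblet-cell lectin gene Zg16, had 53, 34 and 52 reads against 14, 29 and 15 (-1.22 ± 0.39; adjusted p = 0.0544 without PFOA replicate 3), and Zg16 fell by 1.39 ± 0.25. In the other direction, Gm11033, 38533 bases from the intestinal homeobox gene Isx, had 0, 0 and 0 against 4, 6 and 13, at least 7.90-fold higher, and Isx rose from 67, 822 and 237 reads to 11005, 17144 and 14436 (5.27 ± 0.88). 2210414F02Rik, 33226 bases from the mucin glycosyltransferase gene Gcnt3, had 2, 0 and 2 against 7, 10 and 7, and Gcnt3 rose by 2.00 ± 0.26. Tbx3os2, 371 bases from the T-box gene Tbx3, had 0, 1 and 1 against 1, 11 and 8, with overlapping groups, and Sox6os had 0, 0 and 0 against 6, 1 and 1 inside Sox6, which rose by 1.99 ± 0.47.

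Close neighbours could also differ in size. AI854703 fell from 3273, 2216 and 2510 reads to 32, 32 and 16 (-6.58 ± 0.40), while the merged row of Gm5111, Repin1 and Zfp775, 3094 bases away, went from 1679, 1318 and 1469 to 442, 544 and 395 (-1.65 ± 0.23). Slc13a2os, named for the citrate transporter gene Slc13a2 across from it, fell from 9, 21 and 14 reads to 1, 3 and 2 (-2.76 ± 0.54); its nearest listed coding row was Foxn1, 7927 bases away (-3.95 ± 0.49). Gm29175 had 0, 0 and 0 reads against 10, 4 and 4, 1554 bases from A230072I06Rik (3.15 ± 0.72).

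A start within 1000 bases of an opposite-strand coding start was found for 30 lncRNAs, 18 higher and 12 lower. Only 6 of those coding genes have a row, namely Cnnm1, Slc30a10, Eln, Phlpp2, Il34 and Cyp2d34, and all 6 were on the side of the lncRNA. All of them but Slc30a10 are also neighbours in the overlapping pairs counted above, so this is not a separate result. No share was computed for coding rows with such starts, and within 10000 bases 112 of 132 coding rows were on the side of their neighbour. Gm2061, beside the manganese transporter gene Slc30a10, had 5, 40 and 46 reads in control and 251, 134 and 121 under PFOA (2.56 ± 0.70, and 1.93 without control replicate 1).

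lncRNAs also lay beside each other. With gaps of at most 50000 bases, 18 of them formed 8 groups, and in 7 groups all rows were on the same side. Members of a group can overlap and share reads, and no background share was computed. On chromosome 4, MSTRG.15531 spans Gm12511 and overlaps Gm12506 on the same strand, and the 3 rows fell by 1.27 ± 0.37, 1.35 ± 0.34 and 1.34 ± 0.29 on the log2 scale. Gm12506 was the most abundant of them, with 803, 1441 and 1246 reads in control and 511, 367 and 444 under PFOA. On chromosome 12, Gm36235 went from 113, 119 and 134 reads to 22, 26 and 40 and Gm48584 beside it from 13, 12 and 14 to 2, 0 and 2. On chromosome 10, Gm48884 had 11, 5 and 15 reads against 0, 0 and 0 beside Gm34574. The mixed group was that of Platr4 and Gm40040, both lower, and 2400006E01Rik, with 0, 1 and 0 reads against 7, 2 and 5. The only lncRNA on chromosome Y, Gm28588, had 22, 47 and 50 reads in control and 237, 95 and 78 under PFOA (1.88 ± 0.56), with 1.08 when PFOA replicate 1 was left out and an adjusted p of 0.0518 when control replicate 1 was.

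Markers of cell types have a row only where they were selected to differ between the groups, and some lists were mixed in direction. Of 7 small-intestinal markers 3 have a row, all higher under PFOA, with a summed level of 224 to 705 CPM in control and 1870 to 2686 under PFOA. Of 5 adipocyte markers 4 were higher (9.52 to 37.7 against 69.2 to 520 CPM), of 6 T and NK cell markers 5 were higher (31.5 to 63.9 against 95.2 to 281), and the red-cell rows were all lower (547 to 1436 against 120 to 206). Of the 4 adipocyte rows 2 were called, and Plin1, with 4, 1 and 0 reads in control against 61, 0 and 128 under PFOA, had overlapping groups. Of 5 smooth-muscle markers only Cnn1 has a row, at 2553 to 5922 against 1478 to 2094 CPM, and neuronal and B-cell markers have none. Of 9 colon epithelial markers Car1, Car4 and Slc26a3 have a row, 1 higher and 2 lower, at 28556 to 45533 against 24730 to 79121 CPM. Of 4 glial markers Gfap was higher (16.0 to 18.6 against 49.9 to 60.7 CPM), and of 24 intestinal transcription factors 6 were higher and 1 lower (2097 to 2975 against 14495 to 16615). Of 5 squamous epithelial markers Krt13 and Sprr1a have a row, 1 higher and 1 lower. Their summed level was 8.78, 20.8 and 8.61 CPM in control and 493, 13.7 and 21.9 under PFOA, high in PFOA replicate 1 alone. Goblet-cell markers were 3 rows higher and 3 lower. The part of these cell types in the lncRNA differences was not tested. Over the 1608 tested rows PFOA replicate 1 correlated with replicates 2 and 3 at r = 0.953 and 0.951 (log2 CPM, across genes) and these with each other at 0.983. Among the 116 tested lncRNAs PFOA replicates 1, 2 and 3 were the highest of their group in 41, 35 and 39 and the lowest in 42, 37 and 32. When each library was left out in turn, 19 of the 116 (16.4%) lost their call at least once, against 14.9% of all tested rows, between 3 without PFOA replicate 1 and 10 without control replicate 1 or control replicate 3. The 11 lncRNAs with overlapping raw counts include AI838599, with 181, 157 and 195 reads in control and 160, 425 and 550 under PFOA.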

How the data were processed

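The authors deposited 1 table of raw read counts for 6 mouse colon libraries; HISAT2, HTSeq and the mm10 build are named without versions, per the submitters' processing notes. How strands and multi-mapping reads were counted, and how rows were selected, is not given in the sources used here. No row has a log2 ratio near 0. The design assumed a table of all genes; the tests were kept and read as descriptions. Listed counts per library ranged from 1771120 to 2269892.

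Counts were fitted on the whole table with edgeR 4.0.16 in R 4.3.3 (filterByExpr, TMM, quasi-likelihood test, two-sided, Benjamini-Hochberg over 1608 rows, threshold 0.05, no covariates). Errors of log2 fold changes are standard errors. CPM uses TMM-scaled listed totals. Other folds are ratios of summed scaled counts; intervals (95%, Clopper-Pearson) and floors (3 counts over a group) cover counting error only. On simulated counts for the 1608 rows the fit called 15% of 2-fold and 83.3% of 4-fold changes. In that simulation 1365 rows were unchanged, while the table lists only selected rows, so these rates do not carry over to it. Places come from GENCODE M21.

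Members and lists were chosen with earlier results of these data known. Named were, per direction, the 8 largest fold changes without overlap and with at least 1 CPM, the 4 smallest p, the 4 highest levels, the known list and lncRNAs within 5000 bases of a row with an absolute log2 fold change of at least 3, together with their neighbours. The others were chosen after their values were seen. One lncRNA under this rule is not reported here. Alternatives were RLE factors, library totals, other filters, DESeq2 1.42.0, limma-voom 3.58.1, a replicate block, other memberships and distances, and leaving out each library.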

Additional observations from a re-analysis of the deposited data

How the results depend on the processing

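All 29 tested lncRNAs under the naming rule kept their direction and call under every alternative run. Most were picked for a large fold change, a small p or a high level, so this was largely set by the choice. Among all 116 tested lncRNAs 19 lost their call when 1 library was left out. They include others given above, such as Hotairm1, Gm12981, Gm31749, Gm28588 and D430001F17Rik. The counts of 53 higher and 63 lower lncRNAs became 98 and 111 with no filter on low counts, 83 and 97 with 1 CPM in 3 libraries and 83 and 106 with DESeq2, which test more rows. The median log2 fold change of -1.14 became -1.30, -1.34 and -1.42 under these. With library totals alone it was -1.35, with 51 higher and 63 lower; that scaling shifted the median of all tested rows by -0.22. Leaving out 1 library gave 50 to 59 higher, 67 to 76 lower and a median of -1.29 to -1.11. With limma-voom there were 52 and 63. The share on the side of the nearest coding row was 64.1% without any 1 library, 97.1% for pairs within 10000 bases, 90.3% within 100000 and 59.3% for pairs that do not overlap. Rows selected to differ can hardly change side without 1 library, so the steady 64.1% was largely set in advance. Without rows that hold coding exons, an alternative chosen after seeing the data, there were 52 and 57, with a median of -1.07.

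The replicate numbers share no stated animal or batch, and same-numbered libraries deviated from their group means with correlations of 0.114, -0.031 and 0.102, so they were not taken as pairs. With the replicate block 51 higher and 63 lower lncRNAs were called, with a median of -1.16.

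The table lists only selected rows, so no lncRNA that stayed level can be seen and no share of changed lncRNAs can be given. Of the 209, 93 did not pass the filter on low counts and were not tested. In 14 cases the row extends past its annotated gene by more than 1000 bases, and without a stated strand setting antisense levels are uncertain. Each group has 3 libraries.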
